A study of Drosophila melanogaster with 24 samples.

Results

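The samples described here are the males and females of the 2 *Drosophila melanogaster* lines that were selected for high aggression, H1 and H2, which contributed 8 of the 24 arrays of the series. They were chosen by the selection group, line and sex in the sample titles, which give 4 male arrays and 4 female arrays, 2 of each sex in each line. Each array measured total RNA from the whole bodies of a pool of virgin flies 3 to 7 days old that had been deprived of food for a short time. The labels place the collection at generation 28 of selection, and the article gives an earlier generation. The sex difference in these lines was set against that in the 2 unselected control lines, C1 and C2, and in the 2 lines selected for low aggression, L1 and L2, which have the same 4 male and 4 female arrays each. Each selection group thus consists of 2 lines, and the line is the unit that was selected. Neither the labels nor the article say that the replicate samples came from separate cultures, so the p-values below measure the spread between samples.

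In *Drosophila*, the early zygote counts its X chromosomes and turns the gene *Sxl* on in females, and *Sxl* then directs the splicing of *tra*, which in turn directs that of *dsx* and *fru*, the transcription factors that shape the body and the nervous system of each sex. The most sex-specific tissues of the adult are the testis, where sperm are made from a large set of genes used nowhere else, the male accessory gland, ejaculatory duct and ejaculatory bulb, which secrete the proteins of the seminal fluid, and the ovary, which fills the egg with yolk and maternal RNA and wraps it in the eggshell. Outside the gonads, the fat body, the pheromone-producing cells of the cuticle and the brain also differ between the sexes. In RNA from whole flies, fewer cells of a type and less RNA per cell cannot be told apart.

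The marker genes of the reproductive organs matched the labelled sex on all 8 arrays of the high lines. The median Signal of 32 seminal fluid genes was 8522 to 9022 on the H male arrays and 4.4 to 11.7 on the H female arrays, and that of the yolk and eggshell genes was 10.2 to 19.4 on the H male arrays and 4893 to 10006 on the H female arrays. Seminal fluid transcripts stood at 0.052 to 0.190% of the male level of the line on the H female arrays and at 3.31% on replicate 1 of the C1 females. The lower quartile of the Signals was 10.6 to 14.3 on the H female arrays and 28.1 on replicate 1 of the L1 females. Apart from their share in the common estimate of the spread, these 2 arrays enter only the comparisons with the other lines, which are also given without them. The authors scaled each array, and under their scaling the median Signal was 124.8 to 128.5 in H males and 71.4 to 78.3 in H females. Setting all arrays to a common median moved every sex difference towards females, by a median of 0.72 on the log2 scale.

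Most transcripts differed between males and females of the high lines. Of 11928 probe sets with enough signal to be tested, 7244 (60.7%) differed at an adjusted p under 0.001 (limma, moderated variances, Benjamini-Hochberg over all probe sets). Of all tested, 2761 (23.1%) were higher in males and 4483 (37.6%) were higher in females. The differences towards males were fewer but larger. The median difference on the log2(Signal + 16) scale was 3.29 among the probe sets higher in males and -1.18 among those higher in females, which corresponds to 9.76-fold and 2.26-fold. A difference of more than 8-fold was seen in 1480 probe sets higher in males and 287 higher in females, and one of more than 64-fold in 324 and 41. The sexes did not overlap for 8217 probe sets (68.9%), with all 4 male arrays above all 4 female arrays for 3188 (26.7%) and below them for 5029 (42.2%). With all arrays at a common median, 1945 probe sets were called higher in males and 6932 higher in females, which changes the male share of the calls to 21.9%, against 38.1% with the deposited scaling. Of the 7244 calls, 6428 were also called in the same direction with that scaling, and 0 were called in the opposite direction. The rest were no longer called, and their signs were not counted. Counted once per gene, 6280 of 9913 genes (63.4%) were called, 2445 (24.7%) higher in males and 3835 (38.7%) higher in females.

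The genes highest in males relative to females were secreted products of the male reproductive tract. *EbpII*, an ejaculatory bulb protein, had Signals of 17505 and 16918 in H1 males and 22118 and 18817 in H2 males, against 2.8 and 1.5 in H1 females and 0.9 and 2.2 in H2 females. The groups were separated by more than 3 orders of magnitude, and the fitted difference was 10.04 ± 0.45, adjusted p = 1.08e-11 (log2, SE, limma). *Acp98AB*, an accessory gland protein, had 23103 and 18750.1 in H1 males and 24534 and 23481 in H2 males, against 14.1 and 10.7 in H1 females and 4.7 and 4.6 in H2 females (9.85 ± 0.90, adjusted p = 5.08e-08). The other genes among the 10 with the largest male excess were *Mst57Da*, *Acp53C14a*, *Ebp*, *Acp53Ea*, *Acp53C14b*, *CG17376*, *CG15219* and *CG12699*, with differences of 9.38 to 9.78. Since the female Signals of these genes lie at the bottom of the scale, the size of the difference depends on the value added before the logarithm: for *EbpII* it was 12.73 with 1 added and 8.16 with 64 added. Of the 32 seminal fluid genes tested, 31 were higher in males (24.7% of all genes were) and 0 in females, with a median of 8.35 against -0.19 over all probe sets. The differences in the list began at 0.41, for *EbpIII*, an ejaculatory bulb protein that was abundant in both sexes (mean Signal 17399.8 in H males and 13081 in H females), and *Acp95EF* narrowly missed the threshold (1.11 ± 0.26, adjusted p = 0.00103). Both of these genes were singled out after their values were seen.

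**Figure D1:**
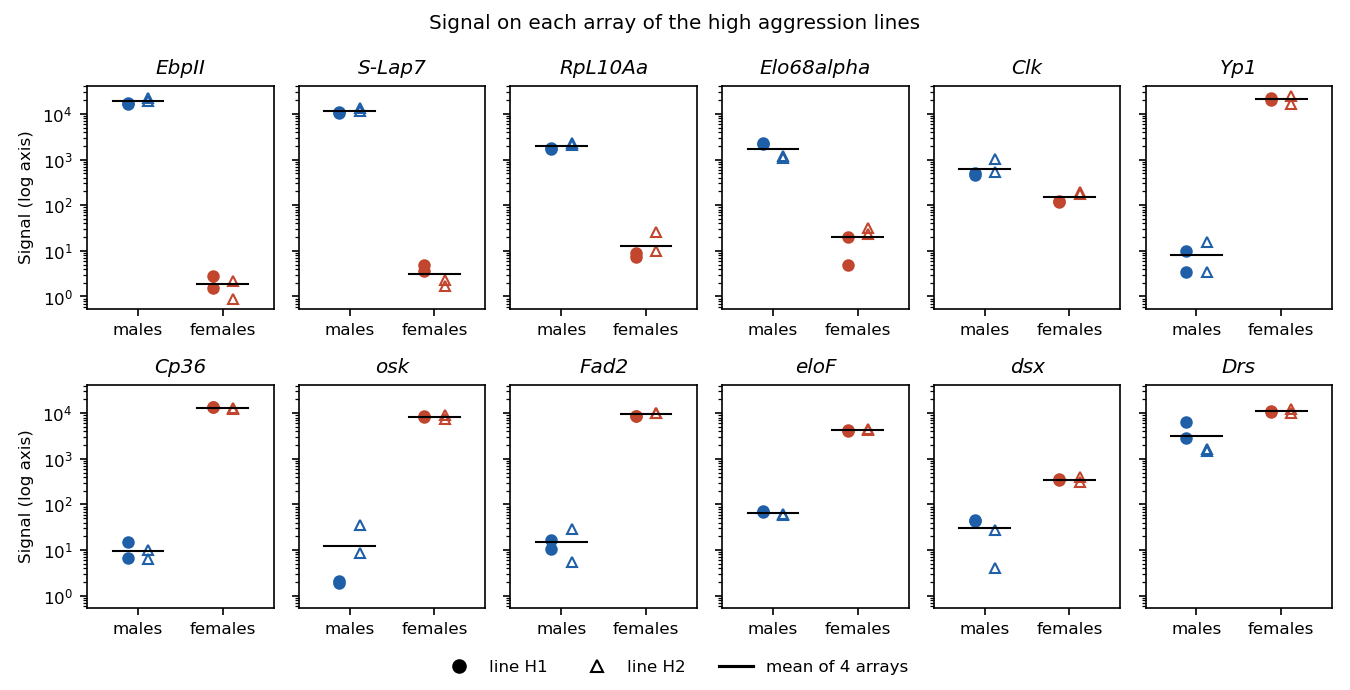
Signal of 12 genes on each array of the high lines, on a log axis that is shared by all panels, for males (blue, left) and females (red, right), with filled circles for H1, open triangles for H2 and a line at the mean of 4 arrays. The sexes do not overlap for any of the 12 genes, and the distance between them runs from more than 3 orders of magnitude for *EbpII*, *S-Lap7*, *Yp1* and *Cp36* to a few fold for *Clk* and *Drs*.

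Genes of the testis and sperm were uniformly higher in males. All 40 tested members of that list were called in this direction, by 3.02 to 9.25, with a median of 5.84. *S-Lap7*, a leucyl aminopeptidase of sperm, had 11044 and 10274 in H1 males and 13785 and 11734 in H2 males, against 4.9 and 3.7 in H1 females and 2.3 and 1.7 in H2 females (9.25 ± 0.51, adjusted p = 1.15e-10). *Mst87F*, a male-specific transcript of the sperm tail, had 12762 and 12148 in H1 males and 13740.4 and 14802 in H2 males, against 14 and 4.1 in H1 females and 4.6 and 11.3 in H2 females (9.11 ± 0.44, adjusted p = 2.41e-11). No H female array exceeded 14 for either gene. Genes that regulate transcription and meiosis in spermatocytes differed less, with a median of 2.09 over 13 genes, 9 of them higher in males, 1 in females and 3 not called. *sa*, a testis-specific component of the transcription machinery, was at 229 to 296 in H males and 4.0 to 18.4 in H females (3.53 ± 0.23, adjusted p = 7.89e-10), and *vis*, a homeobox gene of the testis, differed by 3.23. The exception was *twe*, a Cdc25 phosphatase of meiosis, with 71.1 to 100.1 in H males and 409.5 to 583 in H females (-2.30 ± 0.13, adjusted p = 1.15e-10), and *Rb97D* did not pass the test (-0.11 ± 0.14, adjusted p = 0.496). Antimicrobial and odorant-binding proteins also had members with a male excess of this size. *Anp* (andropin), an antibacterial peptide of the ejaculatory duct, had 11710.4 to 12538 in H males against 1.9 to 38.2 in H females (8.92 ± 0.60, adjusted p = 1.26e-09), and *Obp51a* and *Obp22a* differed by 8.33 and 6.02.

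The genes highest in females relative to males encode yolk, eggshell and germ plasm. *Yp1*, a yolk protein that is made in the fat body and the ovary, had 9.9 and 3.5 in H1 males and 3.4 and 15.9 in H2 males, against 22789 and 20558 in H1 females and 24557 and 16444 in H2 females (-9.79 ± 0.31, adjusted p = 2.26e-13). *Cp36*, a protein of the chorion, the outer eggshell, had 6.8 and 14.7 in H1 males and 6.5 and 9.9 in H2 males, against 13992 and 13521 in H1 females and 12629 and 13123 in H2 females (-9.04 ± 0.26, adjusted p = 1.03e-13). *osk*, which assembles the germ plasm of the egg, had 2.1 and 1.9 in H1 males and 35.6 and 8.7 in H2 males, against 8858 and 8131 in H1 females and 8942 and 7572 in H2 females (-8.37 ± 0.23, adjusted p = 5.25e-14). No male array of these genes exceeded 35.6. *Yp2*, the vitelline membrane genes *Vm34Ca* and *Vm26Aa*, the chorion genes *Cp38*, *Cp16* and *Cp19* and the desaturase *Fad2* completed the 10 largest female excesses, with differences of -9.37 to -8.28. For *Cp16* the female arrays themselves were uneven, with 3691 and 4615 in replicate 1 of H1 and H2 and 10006 and 8879 in replicate 2. All 21 yolk and eggshell genes were higher in females, with a median of -7.23. Of 34 maternal and germ plasm genes, 30 were higher in females, 2 in males and 2 were not called, with a median of -3.50. *CycB*, the mitotic cyclin loaded into the egg, was at 58.7 to 68.4 in H males and 9044 to 12099 in H females (-7.11 ± 0.14, adjusted p = 2.67e-15).

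The pair of maternal genes that ran the other way also act in the male germ line. *exu*, which localizes *bicoid* RNA in the oocyte and is also needed for sperm formation, had 8409 and 7517 in H1 males and 8303 and 6314 in H2 males, against 56.6 and 48.5 in H1 females and 10.4 and 32.1 in H2 females (7.27 ± 0.32, adjusted p = 9.27e-12). *bgcn*, which controls germ cell differentiation in both sexes, had 479.7 and 338 in H1 males and 379.6 and 297 in H2 males, against 21.7 and 47.2 in H1 females and 16.7 and 31.6 in H2 females (3.13 ± 0.28, adjusted p = 3.96e-08). Neither gene had overlapping Signals in the 2 sexes. Which transcripts of *exu* and *bgcn* the probe sets read was not examined here, so low female Signals need not mean that all their transcripts were low. The piRNA pathway, which silences transposons in the germ line, was higher in females in 23 of 25 genes, with a median of -2.69. *piwi*, the nuclear Argonaute of the pathway, was at 6.5 to 42.2 in H males and 1360.0 to 1625 in H females (-5.11 ± 0.21, adjusted p = 3.82e-12), and *rhi*, which marks piRNA clusters in the ovary, at 1.4 to 29.8 and 453 to 1027 (-4.57 ± 0.14, adjusted p = 1.45e-13). *papi*, which acts in piRNA processing, did not pass the test (0.31 ± 0.09, adjusted p = 0.00526).

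Several families of general cell function held one member with a large excess in males and another with a large excess in females, beside members that differed little. Among 9 tubulins, *betaTub85D*, the beta-tubulin of the testis, had 10421 and 9261 in H1 males and 12316 and 9548 in H2 males, against 21.2 and 28.5 in H1 females and 25 and 22.1 in H2 females (8.01 ± 0.51, adjusted p = 6.82e-10), and *betaTub65B* differed by 4.91. *alphaTub67C*, the maternal alpha-tubulin, had 7.2 and 33.2 in H1 males and 9.8 and 56.3 in H2 males, against 5682 and 6042 in H1 females and 4868 and 3665 in H2 females (-7.03 ± 0.32, adjusted p = 1.17e-11), and *gammaTub37C*, the maternal gamma-tubulin, differed by -3.78. Thus 3 tubulins (33.3%) were higher in males, 3 (33.3%) in females and 3 were not called, against 24.7 and 38.7% of all genes. At a common median 3 were called higher in males and 6 in females. Among 41 ribosomal protein genes, 7 (17.1%) were higher in males and 8 (19.5%) in females. *RpL10Aa* had 1784 and 1691 in H1 males and 2332 and 2082 in H2 males, against 8.8 and 7.4 in H1 females and 25.5 and 9.8 in H2 females (6.13 ± 0.29, adjusted p = 1.87e-11). *RpS28-like* (4.68) was the next on the male side, *RpLP0-like* (-2.48 ± 0.08, adjusted p = 4.44e-13) was among those higher in females, and the 26 members that were not called lay between -0.41 and -0.04. With all arrays at a common median, 7 ribosomal protein genes were called higher in males and 34 in females.

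The respiratory chain and ATP synthase showed the same arrangement on the male side alone. Of 53 genes, 11 (20.8%) were higher in males and 0 in females, against 24.7 and 38.7% of all genes. The other 42 lay between -0.05 and 0.41. *COX4L* and *COX7AL*, copies of subunits of cytochrome c oxidase, were at 3766 to 4099 and 2179 to 2677 in H males and at 5.4 to 40.3 and 1.7 to 2.8 in H females (7.05 ± 0.32, adjusted p = 1.14e-11, and 7.01 ± 0.17, adjusted p = 2.05e-14). *COX7A* itself, with 10024 to 10908 in H males and 10155 to 11743 in H females, overlapped between the sexes, as did *ATPsynbeta* (-0.02). With all arrays at a common median, 23 members of this list were called higher in females and 10 in males, so the position of the remaining subunits relative to 0 depends on the scaling and that of *COX4L* and *COX7AL* does not. Among 14 heat shock genes, 6 (42.9%) were higher in males, led by *Hsp60C* (7.76) and *Hsp60B* (7.04), paralogs of the mitochondrial chaperonin. A further 7 (50%) were higher in females, led by the small heat shock proteins *Hsp26* (-2.10) and *Hsp27* (-2.02). *Hsp26* had 1802 and 2707 in H1 males and 1495 and 1579 in H2 males, against 8803 and 8165 in H1 females and 8979.7 and 6185 in H2 females. With a common median, 5 were called higher in males and 8 in females.

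The genes that determine sex and equalize X-linked expression between the sexes were mostly higher in females of the high lines. Of 13 genes, 9 (69.2%) were higher in females, 1 (7.69%) in males and 3 were not called, with a median of -1.07. Of all genes, 38.7% were higher in females and 24.7% in males. *dsx* had 42.6 and 46.5 in H1 males and 27.7 and 4.0 in H2 males, against 358 and 349 in H1 females and 303 and 396 in H2 females (-3.11 ± 0.18, adjusted p = 1.65e-10), *tra* had 178 to 263 in H males and 584 to 675 in H females (-1.43 ± 0.11, adjusted p = 8.65e-09), and *Sxl* had 383 to 446 and 686 to 926 (-0.94 ± 0.13, adjusted p = 8.29e-06). These transcripts are spliced differently in males and females, and which of their exons the probe sets read was not examined here. *tra2* (-1.04), *ix* (-1.15) and *fl(2)d* (-1.32), which act in the same cascade, were also higher in females, and *vir* did not pass the test (-0.46 ± 0.18, adjusted p = 0.0278). *fru*, which organizes male courtship and aggression circuits, was the member that was higher in males, with 253 and 221 in H1 males and 192 and 189 in H2 males, against 142 and 139 in H1 females and 115 and 145 in H2 females (0.60 ± 0.13, adjusted p = 4.71e-04), and with all arrays at a common median its difference was -0.09. Of the dosage compensation complex that coats the male X, *msl-1* (-1.31), *msl-3* (-1.07) and *mof* (-1.14) were higher in females, *mle* was not called (-0.54 ± 0.15, adjusted p = 0.00415), and *msl-2*, the subunit restricted to males at the protein level, was at 98.1 to 169 in H males and 31.1 to 107 in H females, which missed the threshold (0.89 ± 0.23, adjusted p = 0.00241).

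Sex-biased genes were unevenly spread over the chromosomes. On the X, 19.0% of 1567 genes were higher in males and 48.9% in females, and the median difference was -0.51. On 2L, 28.0% of 1876 genes were higher in males and 35.6% in females, with a median of -0.07. Arms 2R, 3L and 3R lay between 24 and 25.7% for males and 35.8 and 38.6% for females. A male excess of more than 8-fold was found in 10.6% of X-linked genes and 17.5% of genes on 2L. On chromosome 4, which has 60 tested genes, 10% were higher in males and 30% in females, and 0 exceeded 8-fold in males. These shares are given without a test, since genes are not replicates.

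**Figure D2:**
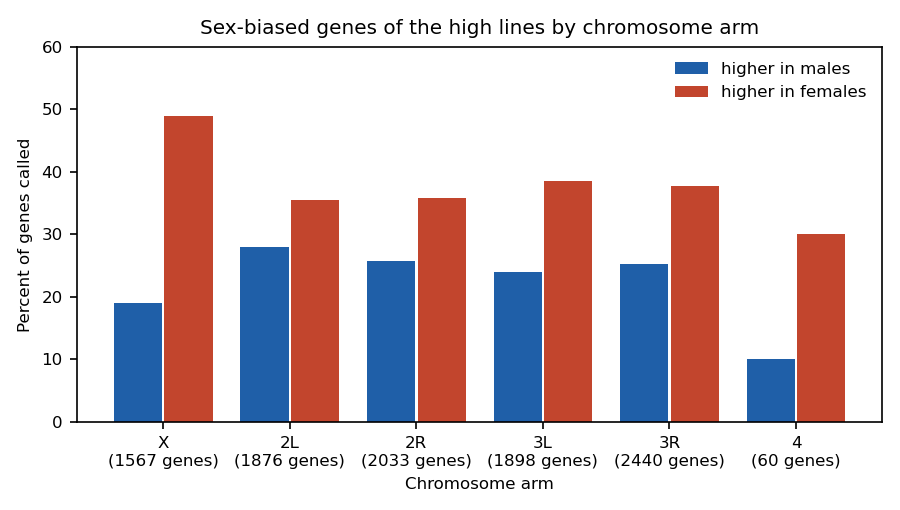
Percent of the genes on each chromosome arm that were called higher in males (blue) or higher in females (red) in the high lines, at an adjusted p under 0.001; the number of genes tested is given under each arm. The X has the highest bar for females (48.9%), and 2L the highest for males (28.0%).

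Enzymes that make cuticular hydrocarbons, the contact pheromones of the fly, included some of the strongest sex differences outside the gonads. *Fad2*, the female desaturase that makes dienes, had 10.5 and 16.7 in H1 males and 5.4 and 28.4 in H2 males, against 8678 and 8639.8 in H1 females and 10064 and 10110.0 in H2 females (-8.28 ± 0.24, adjusted p = 1.01e-13). *eloF*, the female elongase of the same pathway, had 66.8 and 71.3 in H1 males and 61.4 and 57.6 in H2 males, against 4023 and 4259 in H1 females and 4288 and 4493 in H2 females (-5.74 ± 0.13, adjusted p = 1.33e-14). *Elo68alpha*, an elongase of the male ejaculatory bulb, had 2236 and 2306 in H1 males and 1109 and 1212 in H2 males, against 20 and 5.0 in H1 females and 30.9 and 23.1 in H2 females (5.58 ± 0.32, adjusted p = 2.15e-10). In each case the sexes were far apart, and *Elo68alpha* was in addition higher in H1 than in H2 males. Of the 19 genes of this list, 8 (42.1%) were higher in males and 6 (31.6%) in females, against 3 and 9 at a common median. Of all genes, 24.7% were higher in males and 38.7% in females. Of 11 genes known for sex bias in the fat body and head, 5 (45.5%) were higher in males and 5 (45.5%) in females, against 3 and 5 at a common median. *Qsox2* was at 1129.7 to 1449.9 in H males and 50.8 to 81.3 in H females (3.97 ± 0.18, adjusted p = 1.11e-11), and *Cyp4d21*, a P450 of the male head fat body, at 149 to 247 and 3.9 to 24.8 (2.84 ± 0.34, adjusted p = 1.55e-06).

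Genes of the nervous system differed little, and most of what passed the test was higher in males. Of 31 neuronal channel and synapse genes, 9 (29.0%) were higher in males, 2 (6.45%) in females and 20 were not called, with a median of 0.56. Of all genes, 24.7% were higher in males and 38.7% in females. The male share was thus near that of all genes, and the female share was below it. *brp*, which builds the active zone of synapses, had 83.5 and 88.3 in H1 males and 132 and 102 in H2 males, against 12 and 31 in H1 females and 16 and 13.8 in H2 females (1.79 ± 0.35, adjusted p = 2.28e-04), and the potassium channel *Shaw* had 239.9 to 324 in H males and 99 to 178 in H females (1.14 ± 0.13, adjusted p = 9.49e-07). *sei*, another potassium channel, and *Csp*, a synaptic vesicle chaperone, were higher in females (-0.57 and -0.47). The median of the list turned to -0.13 with all arrays at a common median, where 0 genes were called higher in males and 4 in females, and its direction therefore rests on the scaling.

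Genes of biogenic amine synthesis, transport and reception, which have been linked to aggression in many animals, showed 1 call in 18 tested, where 63.4% of all genes were called. The list has 28 genes on the array, and those without enough signal to be tested include *ple*, *Dop1R1*, *5-HT1B* and *5-HT7*. *Ddc*, the decarboxylase that completes dopamine and serotonin synthesis, had 659 and 749 in H1 males and 779.9 and 749 in H2 males, against 474 and 407 in H1 females and 485 and 679 in H2 females (0.53 ± 0.10, adjusted p = 2.22e-04), with 1 H2 female array above the lowest male array. The direction for *Ddc* reversed, to -0.20, with all arrays at a common median. Differences of the remaining 17 genes lay between -0.20 for *Tdc2*, an enzyme of octopamine synthesis, and 0.73 for *Octbeta1R*, an octopamine receptor. The octopamine enzyme *Tbh* (0.33 ± 0.13, adjusted p = 0.0268), the transporters *SerT* (0.62 ± 0.17, adjusted p = 0.00328), *DAT* (0.28 ± 0.21, adjusted p = 0.245) and *Vmat* (-0.12 ± 0.23, adjusted p = 0.643), and the receptors *5-HT2A* (0.70 ± 0.21, adjusted p = 0.00655), *5-HT1A* (0.36), *Dop2R* (0.64) and *DopEcR* (0.59) did not pass the test. Neither did *Pu* (0.46), *Hdc* (0.34), *e* (0.24), *t* (0.19), *speck* (0.25), *Tdc1* (-0.06) or *Catsup* (0.07). With a common median, 0 genes of the list were called higher in males and 3 in females. Many of these transcripts were weakly expressed and varied between arrays. *DAT*, for example, ran over 49.6 to 86.9 in H males and 29.3 to 74.4 in H females.

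Among 12 circadian clock genes, 3 (25%) were higher in males and 3 (25%) in females, against 24.7 and 38.7% of all genes. At a common median the counts were 1 and 8. *Clk*, the transcription factor at the head of the clock, had 508 and 467 in H1 males and 1012 and 537 in H2 males, against 116 and 122 in H1 females and 172 and 199 in H2 females (1.90 ± 0.16, adjusted p = 2.16e-08). *cyc*, its partner, had 263 and 264 in H1 males and 230.0 and 225 in H2 males, against 896 and 915 in H1 females and 694 and 718 in H2 females (-1.64 ± 0.07, adjusted p = 3.33e-12). The partners thus differed in opposite directions in whole flies. *dco*, a kinase that phosphorylates Period, was higher in females (-1.64), and *Pdf*, the neuropeptide of the clock neurons, was called higher in males (0.66), with a difference near 0 at a common median. Of 20 phototransduction genes, 4 were higher in males, among them *inaD* (0.71) and *ninaB* (0.69), whose differences were near 0 at a common median, and 1, *rdgBbeta* (-1.88 ± 0.10, adjusted p = 1.09e-10), was higher in females. Of 25 sarcomere genes, 4 were higher in males, led by the troponin C gene *TpnC41C* (0.88) and the troponin T gene *up* (0.57, but -0.17 at a common median), and 0 in females. At a common median, 0 genes were called higher in males and 5 in females for phototransduction, and 0 and 7 for the sarcomere.

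Detoxification enzymes included large differences in both directions. The share of all genes called was 24.7% towards males and 38.7% towards females. Among 73 genes for cytochrome P450 enzymes, 26 (35.6%) had their higher level in males and 7 (9.59%) in females, with *Cyp312a1* (5.99) and *Cyp6a19* (-5.49) at the extremes. *Cyp6a19* had 41.2 and 60.2 in H1 males and 83.5 and 38 in H2 males, against 3875 and 3239 in H1 females and 3128 and 2370.1 in H2 females. Of 32 glutathione S-transferases, 11 (34.4%) were higher in males and 7 (21.9%) in females, and of 26 UDP-glycosyltransferases, 6 (23.1%) and 2 (7.69%). The male side was led by *GstD5* (1.72) and *Ugt50B3* (4.80), the female side by *GstZ1* (-1.14) and *Ugt316A1* (-1.87). At a common median, the counts were 7 higher in males and 15 in females for P450 genes, 0 and 10 for glutathione S-transferases and 2 and 15 for UDP-glycosyltransferases. Among odorant-binding proteins, 10 of 29 were higher in males and 2 in females, *Obp19c* (-4.19 ± 0.30, adjusted p = 2.46e-09) and *Obp56e* (-1.59). Of 31 cuticle proteins of the Cpr family, 5 were higher in males, with *Cpr67Fb* (3.29) in the lead, and 3 in females. At a common median, these counts were 8 and 5 for odorant-binding proteins and 3 and 12 for Cpr proteins.

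Digestive and immune genes differed in both directions. Of 13 Jonah proteases of the gut, 0 were higher in males and 6 (46.2%) in females, against 24.7 and 38.7% of all genes. *Jon99Fi* had 3049 and 3822 in H1 males and 4580.3 and 3841 in H2 males, against 11544 and 9874 in H1 females and 10517 and 11642 in H2 females (-1.52 ± 0.14, adjusted p = 4.46e-08), and *Jon44E* differed by -1.49. Of 11 maltase and amylase genes, 7 were higher in males and 1 in females. *Mal-A7* had 3227 and 2928 in H1 males and 5869.5 and 4923 in H2 males, against 771 and 906 in H1 females and 2409.5 and 1758 in H2 females (1.62 ± 0.17, adjusted p = 2.67e-07), and in females as in males the H2 arrays were above the H1 arrays. At a common median, 1 maltase was called in each direction and 12 of the Jonah proteases were called higher in females. Of 9 antimicrobial peptides, 2 were higher in males, *Anp* and *Drsl4* (0.60, but -0.14 at a common median), 2 in females and 5 were not called. *Drs* (drosomycin), the main antifungal peptide, had 2896 and 6315 in H1 males and 1477 and 1682 in H2 males, against 11268 and 10684 in H1 females and 10027 and 12656 in H2 females (-2.09 ± 0.30, adjusted p = 1.00e-05), and *Def* (defensin) differed by -1.74. Of 22 genes of starvation, insulin signalling and lipid storage, 6 were higher in males and 6 in females, against 1 and 12 at a common median. *Lsp2*, a storage protein, led the males (2.39 ± 0.34, adjusted p = 9.80e-06), followed by *tobi* (1.05), an alpha-glucosidase controlled by insulin, and the translational repressor *4E-T* (-1.33) and the lipid droplet protein *Lsd-2* (-0.94) led the females. In the Npc2 family of sterol-binding proteins, *Npc2e* was higher in females (-3.11) and *Npc2h* in males (1.16), and of 8 genes of the yellow family, *yellow-g* (-6.18) and *yellow-g2* (-6.17), which are also on the eggshell list, were called and 6 others were not.

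**Figure D3:**
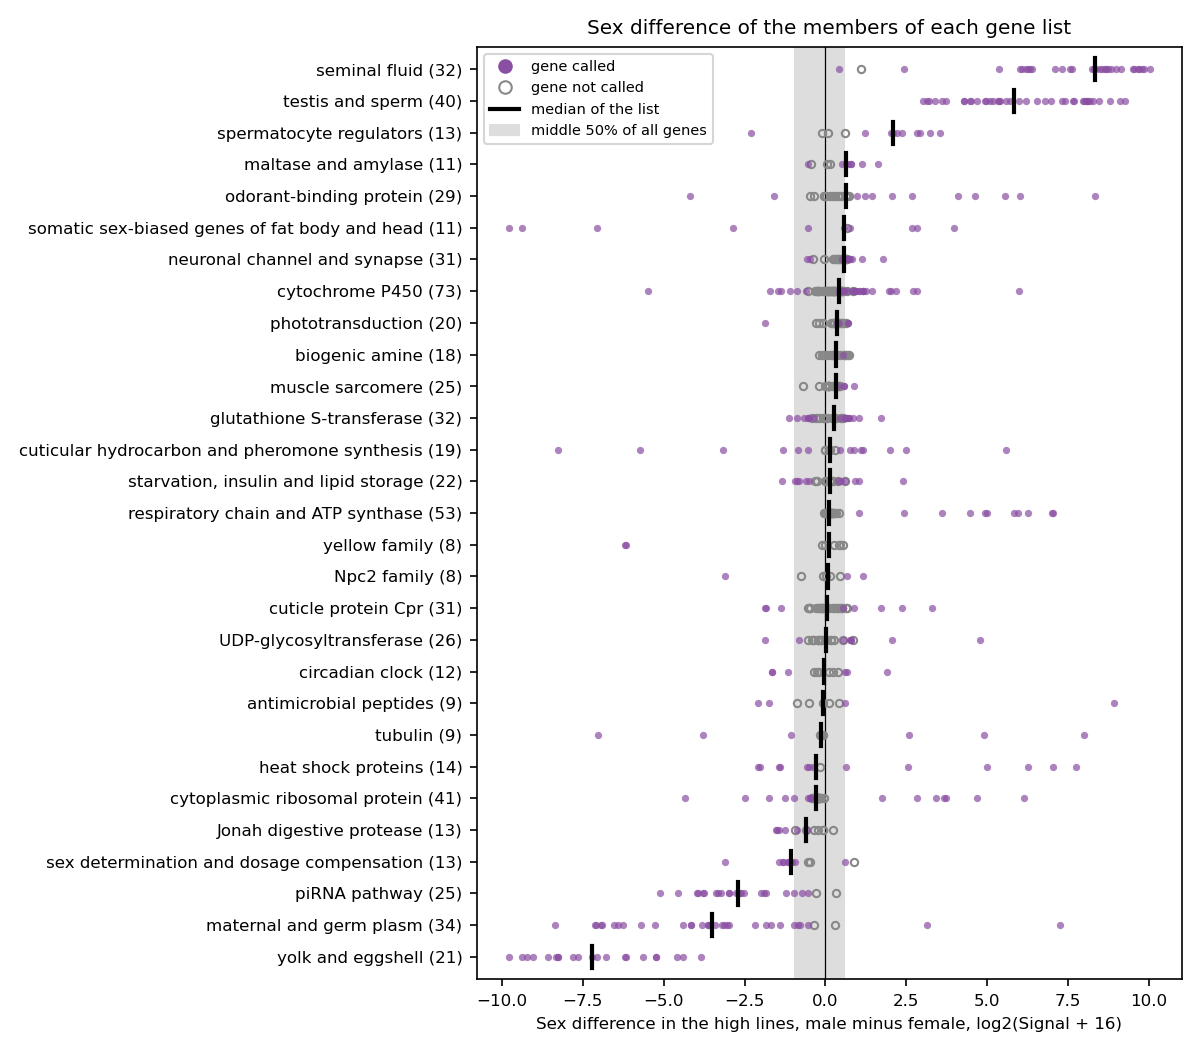
Sex difference in the high lines (male minus female, log2(Signal + 16)) of every tested member of 29 gene lists, with filled points for genes called at an adjusted p under 0.001, open points for the others, a bar at the median of the list and a grey band over the middle 50% of all genes; the number of genes is in parentheses. Seminal fluid and testis genes lie far to the right (medians 8.35 and 5.84), yolk, maternal and piRNA genes far to the left (medians -7.23, -3.50 and -2.69), and most other lists are centred near 0 with a few members far out on either side.

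The next question was which of these sex differences were larger or smaller than in the control and low lines. The number of probe sets with a sex difference was 7244 in H, 6970 (58.4%) in C and 6955 (58.3%) in L. Across probe sets, the sex difference in H correlated with that in C at 0.991 (Pearson) and with that in L at 0.991, and the 2 H lines correlated with each other at 0.984, all as a description over 11928 probe sets that share the arrays of each line. Of the 7244 probe sets called in H, 7077 were called in the same direction in the mean of C and L, 0 in the opposite direction, and 167 were not called there. A further 1135 probe sets were called in the mean of C and L, which rests on more arrays, and not in H. When the difference itself was tested (sex difference of H minus the mean of C and L, limma), 23 probe sets (0.193%) passed an adjusted p of 0.05, 11 (0.0922%) with a more positive and 12 (0.101%) with a more negative male minus female difference in H. The lowest adjusted p was 0.00244, and the unadjusted p was under 0.05 in 1439 (12.1%). All 23 also passed without the 2 doubtful female arrays, where 60 probe sets (0.503%) passed. With the line as the replicate, on 1 sex difference for each of the 6 lines, 0 passed, the lowest adjusted p was 0.376, and 828 (6.94%) had an unadjusted p under 0.05. The count over arrays also depended on single arrays: without replicate 2 of the H2 males 2 probe sets passed, without replicate 2 of the C1 females 160, and without replicate 2 of the L1 females 155.

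**Figure D4:**
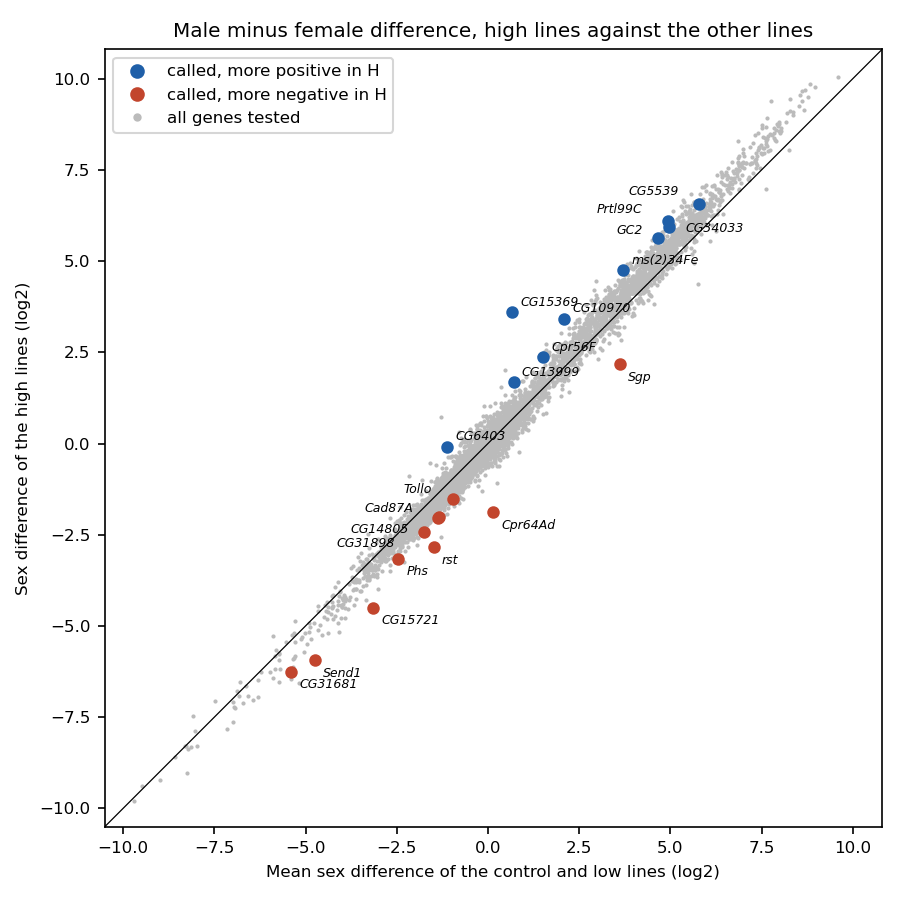
Sex difference of the high lines (vertical axis) against the mean sex difference of the control and low lines (horizontal axis), in log2 units, for 9913 genes (grey) and for 21 genes whose sex differences differed between them (blue where more positive in H, red where more negative), with the line of equal differences. The 21 genes lie at the edge of the band of all genes or outside it, and *CG15369* (3.59 in H) and *Cpr64Ad* (-1.88 in H) are farthest from the line.

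The 23 probe sets include those of 21 genes (0.212% of all genes tested), 10 (0.101%) with a more positive and 11 (0.111%) with a more negative difference in H, and 18 of these had a larger sex difference in H than in the other lines. By chromosome arm, the 21 were 5 of 1567 genes tested on the X, 6 of 1876 on 2L, 3 of 2033 on 2R, 3 of 1898 on 3L and 4 of 2440 on 3R. These counts were not tested. *CG15369*, an X-linked gene, had the largest of these differences. It had 119 and 320.2 in H1 males and 260.1 and 473 in H2 males, against 9.8 and 6.6 in H1 females and 4.6 and 8.0 in H2 females. The C and L males lay at 8.4 to 111 and the C and L females at 5.8 to 100.5, so that every H male array was above every other male array. The sex difference was 3.59 in H against 0.91 in C and 0.43 in L, and the difference between groups was 2.93 ± 0.32, adjusted p = 0.00244. *CG10970*, also on the X, had 241 to 370.5 in H males against 116 to 296 in C and L males and 7.0 to 19.3 in H females against 17 to 63.5 in C and L females (3.42 in H against 2.02 in C and 2.16 in L, a difference of 1.33 ± 0.23, adjusted p = 0.0301). *CG13999* had 109 to 219 in H males against 62.3 to 118 in C and L males, with 219 and 214 in H1 males and 135 and 109 in H2 males, and a sex difference of 1.69 in H against 0.75 in C and 0.65 in L (0.99 ± 0.16, adjusted p = 0.0301).

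A further 6 genes had a larger male excess in H, with very low Signals in females. *Prtl99C*, a protamine-like protein of sperm chromatin, had 1305 to 1642 in H males against 1074 to 1528 in C and L males and 1.6 to 12.7 in H females against 3.3 to 60.7 in C and L females (6.10 in H against 4.67 in C and 5.19 in L, adjusted p = 0.0301). *CG34033* (5.92 in H against 4.68 in C and 5.23 in L, adjusted p = 0.0427) and *CG5539* (6.57 in H against 5.21 in C and 6.35 in L, adjusted p = 0.0472) had male Signals of 1137 to 1261 and 2001 to 2174 in H, and the H female Signals were 1.6 to 8.7 and 2.7 to 8.4. *GC2*, a mitochondrial glutamate carrier, had 831 to 933 in H males against 424 to 799 in C and L males and 1.6 to 2.6 in H females against 1.9 to 21.8 in C and L females (0.96 ± 0.15, adjusted p = 0.0301). For *GC2* and *CG5539* all H males were above all C and L males. *ms(2)34Fe*, a gene named for male sterility, had 3.9 to 21.7 in H females against 21.9 to 51.3 in C and L females, with every H female array below the others, though by as little as the step between 21.7 and 21.9 (1.03 ± 0.19, adjusted p = 0.0453). *Cpr56F*, a cuticle protein, had 76.3 to 95.4 in H males against 30.2 to 108 in C and L males (0.84 ± 0.15, adjusted p = 0.0435). Of the 10 genes with a more positive difference, the larger part of the change was in females for 7 and in males for 3. The median Signal of the testis list was 5.0 to 16.5 on the H female arrays, 5.7 to 53.4 on the C female arrays and 7.5 to 21.9 on the L female arrays, and the part of such transcripts in these differences was not tested. With 1 in place of 16 added to the Signal, *Prtl99C*, *ms(2)34Fe*, *CG34033*, *GC2* and *CG5539* no longer passed, although their differences were larger on that scale (2.22, 1.63, 2.24, 1.85 and 1.20). With 64 added, *Cpr56F* (0.40) and *CG34033* (0.40) did not pass. *CG15369* alone of the 10 passed whichever single array was left out. The others were called in 6 (*Cpr56F*, *ms(2)34Fe* and *CG5539*) to 13 (*CG13999*) of the 24 fits that left out 1 array.

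The genes with a larger female excess in H were of several kinds. *rst* (roughest), an adhesion protein of the immunoglobulin family on the X, had 56.8 and 93.5 in H1 males and 36 and 41.4 in H2 males, against 524 and 493 in H1 females and 389 and 551 in H2 females. The C and L females lay at 127 to 559, and the sex difference was -2.84 in H against -1.42 in C and -1.56 in L (-1.35 ± 0.22, adjusted p = 0.0301). *Send1*, an endopeptidase of the spermathecae, the organs in which females store sperm, had 911 to 1498 in H females against 306 to 1038 in C and L females and was at 1.0 to 2.8 in H males (-5.93 in H against -5.26 in C and -4.24 in L, a difference of -1.18 ± 0.16, adjusted p = 0.0119). *CG15721*, on the X, had 311 to 505 in H females against 156 to 343 in C and L females (-4.50 in H against -3.15 in C and -3.16 in L, a difference of -1.34 ± 0.23, adjusted p = 0.0301), and *CG31681* had 1668 to 1893 in H females against 973 to 1706 in C and L females (-0.86 ± 0.15, adjusted p = 0.0392). For *Phs*, the H males lay at 46.3 to 61.9, below all C and L males at 66.9 to 160.4, and the females lay at 541 to 632 in H and 520.3 to 723 in C and L (-0.70 ± 0.11, adjusted p = 0.0301). The cadherin *Cad87A* (-0.67), *CG31898* (-0.67), *CG14805* (-0.66) and the Toll family receptor *Tollo* (-0.58) had smaller shifts, with adjusted p-values (limma) of 0.0301 to 0.0481. Of the 11 genes with a more negative difference, the larger part was in females for 6 and in males for 5. *Send1* passed whichever single array was left out, but not with 1 in place of 16 added to the Signal, which also ended the calls of *CG15721* and *CG31681*, with larger differences on that scale (-1.77, -2.38 and -1.52). With 64 added, *CG31898* (-0.45) did not pass. Apart from *Send1*, the genes of larger female excess named here were called in 6 (*CG31898*) to 14 (*Phs*) of the 24 fits that left out 1 array.

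In 2 genes the sex difference was smaller in H than in the other lines, and in 1 more it was a female excess in H, weaker in C and turned in L. *Sgp* had 10439 and 10648 in H1 males and 11246 and 10366 in H2 males, against 1879.9 and 2289.8 in H1 females and 2570.4 and 2742 in H2 females. The C and L females lay at 359.9 to 1596, below every H female array, and the males overlapped, so that the male excess was 2.18 in H against 3.71 in C and 3.53 in L (a difference of -1.44 ± 0.25, adjusted p = 0.0301). *CG6403* did not differ detectably between the sexes in H (-0.08 ± 0.14, adjusted p = 0.596) and was higher in females of the other lines, by -1.04 in C and -1.19 in L (1.03 ± 0.17, adjusted p = 0.0301 for the difference). Its H females, at 121 to 296, were low relative to C and L females, at 198 to 906. *Cpr64Ad*, a cuticle protein, had 7.8 and 8.4 in H1 males and 13.8 and 10.5 in H2 males, against 80.7 and 80.2 in H1 females and 73.5 and 85.5 in H2 females. The sexes did not overlap in H, whereas the C and L males lay at 11.7 to 245 and the C and L females at 19.9 to 287. The sex difference was -1.88 in H against -0.34 in C and 0.60 in L (-2.01 ± 0.28, adjusted p = 0.0157), and the call held in 23 of the 24 fits that left out 1 array. *Sgp* was called in only 8 of those 24 fits and *CG6403* in 12.

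**Figure D5:**
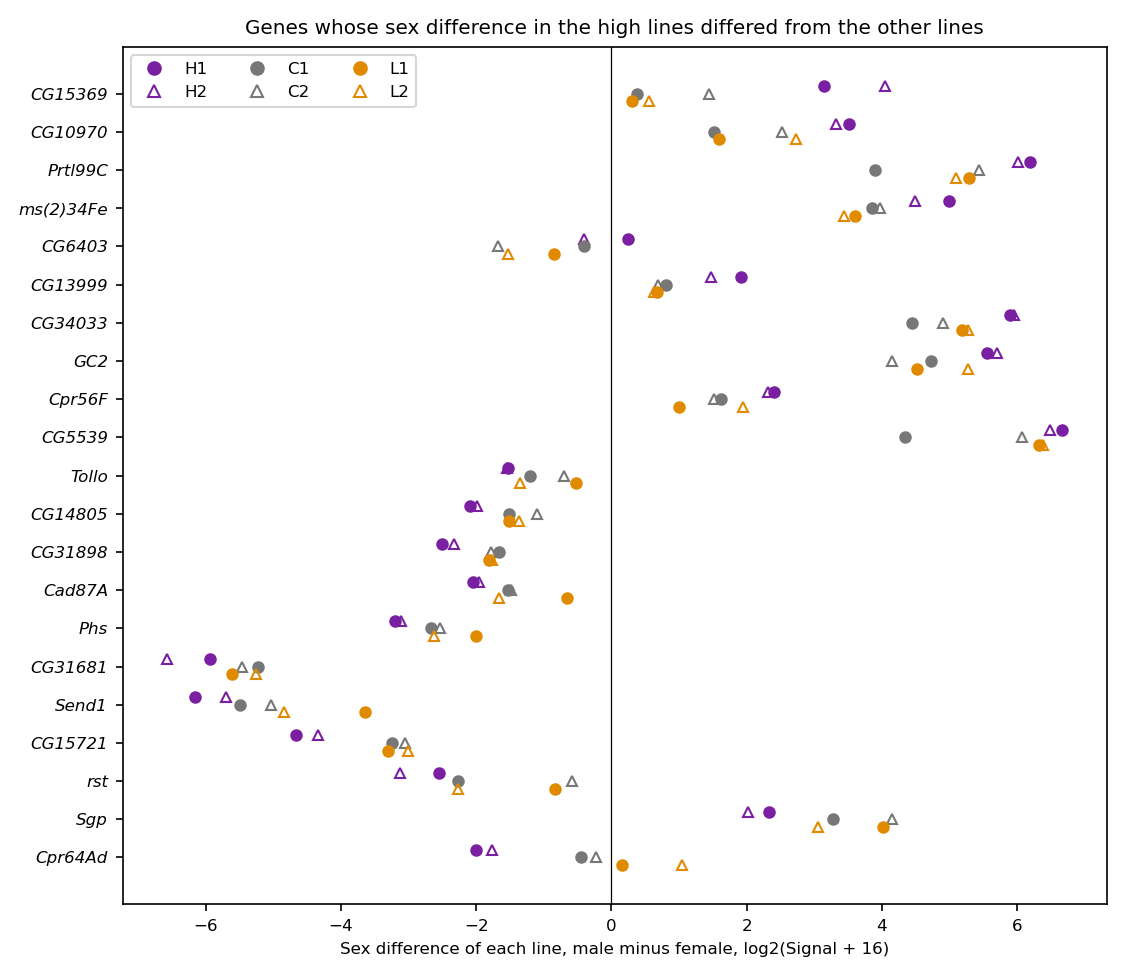
Male minus female difference, log2(Signal + 16), of each of the 6 lines for the 21 genes named, ordered by the difference of H from the other lines, with purple for H1 and H2, grey for C1 and C2 and orange for L1 and L2. As the choice of these genes required, both H lines lie outside the range of the other 4 lines, by a wide margin for *CG15369* (2.93 on average) and narrowly for *CG6403* and *CG5539*.

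Of the 678 tested genes on the lists, 2 (0.295%) passed, against 0.212% of all genes. They were *Cpr56F* and *Cpr64Ad* of the Cpr family, which went in opposite directions. For the lists of seminal fluid and of testis and sperm, the medians were farther from 0 in H than in the other groups, and for the spermatocyte regulators they were not (2.09 in H, 2.11 in C and 2.16 in L). For seminal fluid genes the median sex difference was 8.35 in H, 7.43 in C and 7.81 in L, and without the doubtful female arrays 8.22 in C and 7.87 in L. The difference of H from C and L was above 0 for 31 of 32 seminal fluid genes with all arrays (and for 45.3% of all genes tested) and for 23 without those 2 arrays, where its median was 0.12 instead of 0.59. For the testis and sperm list the medians were 5.84 in H, 5.36 in C and 5.65 in L, and the median difference of 0.53, against -0.02 over all genes, was 0.24 without them. The yolk and eggshell list had medians of -7.23 in H, -7.55 in C and -6.88 in L. A male excess of more than 64-fold was found in 324 probe sets in H, 185 in C and 247 in L, and without the doubtful arrays in 236 in C and 301 in L. Among the probe sets called in each group, a different set in each, the median male excess was 3.29 in H, 2.82 in C and 3.21 in L. The median female excess was -1.18 in H, -1.07 in C and -1.10 in L. Over the probe sets called higher in males in H, the median of H minus C was 0.25 and of H minus L 0.20. Without the doubtful array of C or of L, these were 0.18 and 0.09. For those called higher in females in H, they were -0.15 and -0.12 with all arrays, and -0.17 and -0.12 without. The lower quartile of the Signals was 10.6 to 14.3 on the H female arrays, 11.8 to 16.8 on the C female arrays and 12.5 to 28.1 on the L female arrays. The part of this quartile in these sizes was not tested. Antimicrobial peptides had median differences of -0.06 in H, -0.10 in C and -1.20 in L, and 7 of 9 were more positive in H, with 0 calls.

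Set against each other group alone, with the same H arrays on one side of both comparisons, the sex difference of H differed from that of C in 47 probe sets (0.394%), 25 (0.21%) more positive and 22 (0.184%) more negative, and from that of L in 18 (0.151%), 13 (0.109%) more positive and 5 (0.0419%) more negative. Of the 23 probe sets called against both groups together, 13 passed against C, 9 against L and 2 in both. Without replicate 1 of the C1 females, the array with male transcripts, 32 of the 47 remained, among 48 called. Without replicate 1 of the L1 females, 9 of the 18 remained, among 12 called. Against C, 2 germ line genes had a larger female excess in H, namely *nanos*, a translational repressor of the germ plasm (-6.94 in H, -6.18 in C and -6.45 in L, adjusted p = 0.0363 against C), and *tej*, a piRNA pathway gene (-3.98 in H, -2.89 in C and -4.33 in L, adjusted p = 0.0235 against C). For *tej* the H males were at 13 to 26.3, the C males at 41.8 to 53.3 and the L males at 2.3 to 16.2, so that L lay on the far side of H. *robl62A* had 3007 to 3418 in H males, 958 to 1476 in C males and 1726 to 2627 in L males, with 5.0 to 35.2 in H females and 35.3 to 79.8 in C females (6.39 in H, 4.32 in C and 5.84 in L, adjusted p = 0.0235 against C). *CBP*, on the X, differed from L, with a female excess of -4.0 in H, -3.74 in C and -2.27 in L (adjusted p = 0.015 against L). The L lines were unlike, at -1.67 in L1 and -2.88 in L2. Males of L1 had 428.9 and 506.3, those of L2 119.3 and 79.6, and those of H 45.4 to 109.5. These genes were chosen after their values were seen, and their adjusted p-values come from limma over all probe sets.

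Genes that the article discusses for unlike responses of the sexes to selection were examined as well. The article draws them from separate contrasts of H with L, of H with C and of C with L. *Tsf1*, an iron-binding transferrin, had 8859 and 8651 in H1 males and 5669 and 7188 in H2 males, against 4028 and 3372 in H1 females and 3271 and 3286 in H2 females (1.10 ± 0.15, adjusted p = 6.74e-06). Its sex difference was 1.10 in H against 0.52 in C and -0.12 in L, which passed against L (adjusted p = 0.0414) and missed the threshold against both groups together (0.90 ± 0.19, adjusted p = 0.064). *CG8093* had a male excess of 1.12 in H against 0.79 in C and 0.13 in L, with adjusted p-values (limma) of 0.0414 against L and 0.104 against both. *fon* (fondue), a protein of the hemolymph clot, had 4088 to 5353 in H males and 3401 to 3499 in H females (0.45 ± 0.08, adjusted p = 5.76e-05), and its sex difference was 0.45 in H against 0.33 in C and -0.14 in L, which passed against L (adjusted p = 0.0439) and not against both (0.154). *CG4199*, higher in females, differed by -0.74 in H against -0.11 in C and -0.53 in L, with 0.0237 against C and 0.0838 against both. The carboxylesterase *alpha-Est10* had a smaller male excess in H, 0.67 in H against 1.08 in C and 1.09 in L. This did not pass against both groups together (-0.41 ± 0.12, adjusted p = 0.225, limma), a test that does not address the article's contrast of H with C. For *frma*, *Scp1*, *Scp2*, *CG11523*, *CIA30* and the eye gene *toy*, the difference of H from the mean of C and L was between -0.06 and 0.21, with adjusted p-values (limma) of 0.356 to 0.967. That test averages C and L, so it does not address a contrast of H with L alone, of H with C alone or of C with L. Of these 11 genes, 9 had a called sex difference in H, and *Scp1*, a sarcoplasmic calcium-binding protein (0.12 ± 0.09, adjusted p = 0.246), and *CIA30*, an assembly factor of respiratory complex I (-0.01 ± 0.07, adjusted p = 0.923), did not.

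The sex difference was also compared between the 2 high lines. A test of H1 minus H2 (limma) called 3 probe sets (0.0252%), 2 (0.0168%) more positive in H1 and 1 (0.00838%) more negative, and 2 of the 3 name 1 gene. The median absolute difference of H1 from H2, at 2 arrays a mean, was 0.22, and that of H from C and L, at 4 and 8 arrays a mean, was 0.15. *CG7886* had 2321 and 2055 in H1 males and 2375 and 1824 in H2 males, against 427 and 366 in H1 females and 8.2 and 12.4 in H2 females. The male ranges of the lines overlapped and the H1 females were high, so that the male excess was 2.42 in H1 and 6.32 in H2 (-3.90 ± 0.59, adjusted p = 0.0486). The female Signals of the other 4 lines, at 6.1 to 55.2, were on the side of H2. *CG14384* showed the opposite, with 413 and 397 in H1 males and 459 and 435 in H2 males, against 3.3 and 1.7 in H1 females and 122 and 95.5 in H2 females (2.61 ± 0.27, adjusted p = 9.47e-04). The H2 females were high there, and the sex difference of 1.90 in H2 stood beside 4.51 in H1, 4.25 in L1, 1.57 in L2 and 4.22 to 4.38 in the C lines. The title of 1 H male array is ambiguous about its line, read here as H2, and with the first male arrays of H1 and H2 exchanged 1 probe set was called, while the sex difference in H called 7035 in place of 7244.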

How the data were processed

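Total RNA of 24 pools of whole virgin flies was hybridised to single-colour Affymetrix *Drosophila* arrays. The deposited value of each probe set is the Signal, an intensity on a linear scale that the authors computed with Affymetrix Microarray Suite and scaled array by array; no further normalization was applied to it. Of 18769 probe sets, 13647 named 1 gene, 402 several and 4720 none in the platform annotation, and 13544 of the first were matched to RefSeq (Release 6 plus ISO1 MT) for their current symbol and arm, while 103 kept the platform name. Probe sets with a Signal of at least 50 on at least 12 arrays were kept (11928; 6841 were left out), in place of the filter on absent calls of the methods. The highest probe set over all arrays stood for a gene (9913 genes), and none was named from a probe set with several genes. Hybridisation to related copies of a gene was not examined.

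Each of the 6 lines had its own mean in each sex, fitted to log2(Signal + 16) over all 24 arrays in R 4.3.3 with limma 3.58.1 (lmFit, eBayes), and male minus female differences were taken within lines. Adjusted p-values are Benjamini-Hochberg over all probe sets kept, with a threshold of 0.001 for the sex difference, as in the methods, and of 0.05 for differences between sex differences. Errors are standard errors of the fit unless a range is given. The line was also used as the replicate, on the 6 sex differences. The fit over arrays was also run on simulated data with known changes. Those data had independent noise on each array and no spread between lines, so they do not bear on differences between lines. Genes were named where they had the 10 largest sex differences in each direction, were at the ends of 1 of 29 gene lists, passed a comparison with the other lines with both H lines outside their range (also without the 2 doubtful arrays), passed between H1 and H2, are discussed in the article for sexually antagonistic responses, or belong to the lists of sex determination and of biogenic amines. The members and lists were chosen with earlier results of these data known. Alternatives were other added values, filters and scalings, ordinary variances, the linear model that the methods describe, on untransformed Signals, the replicate number as a block, and fits without single arrays or lines. Arrays carry no read depth, so that their number limits the precision. One gene of the ribosomal protein list is not reported here by name.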

Additional observations from a re-analysis of the deposited data

Results flagged for a closer look

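In 2 of 68 groups of 4 arrays examined for the named genes, 1 array stood apart from the other 3, where chance alone sets apart about 1 group in 20. The highest H male array for *CG31898* had a Signal of 73.2, in H1, and the highest H female array for *Tsf1* had a Signal of 4028, also in H1.

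Sex differences (male minus female, log2) of the high lines were tested against the mean of the control and low lines. With the line as the replicate, 0 probe sets passed. Over arrays, the sex difference of 21 genes differed in a test of the difference itself. It was more positive in H by 2.93 for *CG15369*, 1.33 for *CG10970*, 1.17 for *Prtl99C*, 1.03 for *ms(2)34Fe*, 1.03 for *CG6403*, 0.99 for *CG13999*, 0.97 for *CG34033*, 0.96 for *GC2*, 0.84 for *Cpr56F* and 0.79 for *CG5539*. It was more negative in H for *Cpr64Ad* (-2.01), *Sgp* (-1.44), *rst* (-1.35), *CG15721* (-1.34), *Send1* (-1.18), *CG31681* (-0.86), *Phs* (-0.70), *Cad87A* (-0.67), *CG31898* (-0.67), *CG14805* (-0.66) and *Tollo* (-0.58). Between the high lines, the sex difference of H1 minus that of H2 was -3.90 for *CG7886* and 2.61 for *CG14384*.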

How the results depend on the processing

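The number of probe sets with a sex difference in H stayed within 1.5 times of 7244 under every alternative run, at 5604 (without line H1) to 9183 (at an adjusted p of 0.05) and at 6673 to 7330 when single arrays were left out. The counts against other lines did not. Against C and L together (23), 5 passed with the line labels of the first H male arrays exchanged, 356 in the linear model on the Signal itself, 3 with no filter, 3 with ordinary variances, 15 and 48 with 1 and 64 added to the Signal, 13 after quantile normalization within each sex, 60 without both doubtful arrays, 7 without line C2, 5 without H1, 1 without H2, 35 without L2 and 0 at an adjusted p of 0.001. Against C alone (47), the counts were 569 in the linear model, 2 with no filter, 11 with ordinary variances, 18 and 74 with 1 and 64 added, 96 without both doubtful arrays and 0 at 0.001. Against L alone (18), they were 8 with exchanged labels, 131 in the linear model, 6 with no filter, 8 with ordinary variances and 0 at 0.001. Between H1 and H2 (3), they were 1 with a Signal of 50 asked for on 4 arrays, with exchanged labels, with no filter, with ordinary variances and at 0.001, 66 in the linear model, 7 with 64 added and 23 without both doubtful arrays. Leaving out single arrays gave 2 to 160 against C and L, 2 to 298 against C, 3 to 214 against L and 1 to 11 between H1 and H2. The cause of these shifts was not tested. With the line as the replicate, 0 passed in each of the 3 fits run.

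Among the genes named for their sex difference in H, and called with the deposited scaling or at a common median, 9 changed sign at the common median. The difference was then -0.064 for *Npc2b*, -0.14 for *Drsl4*, -0.000237 for *Pdf*, -0.17 for *up*, -0.011 for *inaD*, -0.00141 for *ninaB*, -0.086 for *fru*, -0.20 for *Ddc* and -0.67 for *Catsup*. Changes of sign in genes called under neither scaling were not counted. No called value of a named gene changed sign under another alternative. Quantile normalization within each sex ended the calls against C and L of *Prtl99C*, *ms(2)34Fe*, *CG13999*, *CG34033*, *CG5539*, *CG31681*, *CG31898*, *CG14805* and *Tollo*, with differences of 1.00, 0.87, 0.87, 0.83, 0.64, -0.78, -0.55, -0.58 and -0.49, somewhat smaller than without it.

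Replicates of the same number in males and females of a line did not deviate together (r = 0.016, 0.112, 0.034, 0.014, -0.036 and 0.101 across probe sets in H1, H2, C1, C2, L1 and L2), so the number was not taken as a pairing. With it as a block, 7376 probe sets had a sex difference in H, and 37, 60, 22 and 2 passed against C and L, against C, against L and between H1 and H2.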
